A study of Mus musculus with 9 samples.

Results

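The claudin and connexin genes of mouse embryonic stem cells (mESC) were followed across 3 culture media. They were taken from the deposited table as the protein-coding genes whose symbol is *Cldn* with a number or *Gja*, *Gjb*, *Gjc*, *Gjd* or *Gje* with a number, and 37 of the genes so named are described, of 29069 genes in all, of which 19018 are protein coding. The 37 comprised 22 claudin names and 15 connexin genes. Of these, 20 exceeded a mean of 5 normalised counts across the 9 libraries and entered the tests, namely 14 claudins and 6 connexins. The symbols of the table did not all match those of the GENCODE M21 annotation: the gene called *Cldn25* there (ENSMUSG00000022744) is *Cldnd1*, and the gene called *Cldn26* (ENSMUSG00000022715) is *Tmem114*. Both are claudin-like proteins and not classical claudins, and they are given here under the names of the table.

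Claudins are 4-span membrane proteins that form the strands of tight junctions and set which ions pass between neighbouring epithelial cells. Connexins assemble in rings of subunits, and rings of apposed cells dock to form gap junction channels through which ions and small metabolites pass from cell to cell. Both kinds of junction form early in the mouse embryo, around the time when the outer cells become an epithelium, and mESC in compact colonies are coupled by gap junctions.

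Total RNA of the D3 line, a single established mESC line adapted to growth without feeder cells and used at passages 5 to 8, was sequenced after 24 h of culture in a ground-state, a differentiation or a nitric oxide medium (3 replicates per medium, each from a dish of its own). Ground-state medium (GS) was serum-free NDiff N2B27 with 1 μM of the MEK inhibitor PD0325901, 3 μM of the GSK-3 inhibitor CHIR99021 and 20 ng/mL of leukaemia inhibitory factor (LIF). Differentiation medium (DM) was DMEM with 10% fetal bovine serum and neither the inhibitors nor LIF. The NO medium was DM with 250 μM of DETA/NO, a donor that releases nitric oxide. GS therefore differs from the other media in the basal medium, the serum, the inhibitors and LIF at once, and these cannot be told apart here. NO differs from DM by the donor alone. The 3 comparisons, DM with GS, NO with GS and NO with DM, share samples pairwise and are not independent of each other. The labels do not say whether the dishes of a medium came from separate experiments, so the p-values measure the spread between these dishes.

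Values are normalised counts, that is, read counts scaled by the size factor of each library and then rounded, and a single read was worth 0.701 to 1.323 units. Estimated depths were 14302054 to 27061091 assigned reads. NO replicate 2 stood apart from the other samples on the first principal component of all tested genes, at 131.2 against 25.9 and 67.1 for NO replicates 1 and 3, -33.1 to -26 for DM and -49.1 to -41.5 for GS. On the second component DM replicate 3 lay at -72.6 against -27.8 and -24.3 for DM replicates 1 and 2. Results that rest on these libraries are given with and without them. Of 10 markers of naive mESC none was at 0 in all samples of any medium, and their summed normalised count was 105035 to 108291 in GS, 82117 to 85739 in DM and 57109 to 87421 in NO, lowest in NO replicate 2. *Tfcp2l1* alone was at 30213 to 31982 in GS, 9340 to 12742 in DM and 10479 to 16478 in NO. Only 2 of the 10, *Tfcp2l1* and *Dppa3*, were called lower than GS in DM and in NO, where 1.27% and 1.64% of all genes were. *Zfp42* was at 16236 to 18573 in GS and 19569 to 22594 in DM. Of 6 markers of simple epithelium, 3 were called higher in NO than in GS by the thresholds given below (*Krt7*, *Krt18* and *Krt19*). The share of all genes called higher was 10.1%, and the count was also 3 without NO replicate 2. *Epcam*, *Krt8* and *Cdh1* were not called, with log2 differences of 0.71, 0.14 and -0.21. *Krt19* reached 2977 in NO replicate 2 against 265 and 794 in the other NO samples. The samples were bulk cultures, so fewer cells of a type and less RNA per cell cannot be told apart.

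Promoter sequence was examined for the members because neighbouring genes among them were called in different comparisons (*Cldn3* and *Cldn4*, described below) and because the hexamer CACCTG, an E-box to which the Snail and Zeb families of repressors bind, is a known element of junction gene promoters. The 250 bases before each annotated start were taken from the RefSeq promoter table (GRCm38.p6), in which 30 of the 37 members have 42 windows. CACCTG, read on both strands (CAGGTG is its reverse), was found in 7 of the 42 windows, each of a different gene, and in 17.2% of all 32851 windows of that length. The grainyhead-type motif AACCNGTT was read on the strand of the gene alone. It was found in 1 of the 42, that of *Gjb6*, and in 0.928% of all windows. Matches on the other strand, such as that in the window of *Cldn5*, were not counted. The 7 genes with a CACCTG match were *Cldn4*, *Cldn6*, *Cldn7*, *Cldn14*, *Gjb1*, *Gjb2* and *Gja3*. A match is a description of the letters and says nothing of binding. The windows of *Cldn4* and *Cldn3* are shown whole because these genes lie 39279 bases apart and were called in different comparisons, and the stretch of 12 bases on either side of the match is shown for *Cldn6* and *Gjb1*, whose mRNA changed between media. Capitals mark the CACCTG or CAGGTG hexamer, and each sequence is given 5′ to 3′ on the strand of the gene. The *Cldn4* window is chr5:134946935-134947184 (minus strand), with the match starting 14 bases before the start. The *Cldn3* window is chr5:134985964-134986213 (plus strand) and has no match. The *Cldn6* stretch is chr17:23679260-23679289 (plus strand), with the match 93 bases before the RefSeq start, which lies downstream of the GENCODE M21 start of the gene (23679249), so that the match is inside the latter gene model, and the *Gjb1* stretch is chrX:101383552-101383581 (plus strand), 168 bases before 1 of its annotated starts. The windows of its other starts have no match. The GENCODE M21 start of *Gjb1* is 101376378, so this match too is inside the gene model.
Cldn4: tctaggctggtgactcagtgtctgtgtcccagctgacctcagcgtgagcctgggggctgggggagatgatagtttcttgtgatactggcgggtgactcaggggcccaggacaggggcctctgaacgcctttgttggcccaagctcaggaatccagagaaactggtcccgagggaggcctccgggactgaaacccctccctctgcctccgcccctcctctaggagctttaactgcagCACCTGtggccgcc
Cldn3: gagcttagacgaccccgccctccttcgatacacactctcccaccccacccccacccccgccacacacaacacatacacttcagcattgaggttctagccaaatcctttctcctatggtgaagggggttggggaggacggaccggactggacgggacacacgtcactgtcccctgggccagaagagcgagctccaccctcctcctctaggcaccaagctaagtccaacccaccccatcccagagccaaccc
Cldn6: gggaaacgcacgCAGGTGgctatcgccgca
Gjb1: gcgggcacagaaCAGGTGggtgcaggctgg

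Levels were compared between genes per kilobase of merged exons. Among the genes described, the highest level per kb in GS was that of *Cldn4*, at 1173 ± 211 (SD, n = 3), followed by *Gjb5* at 669 ± 80.4. *Cldn25* (241 ± 18.2) and *Gjc1* (236 ± 9.78) were within a standard deviation of each other, as were *Gja1* (147 ± 16.0) and *Cldn12* (146 ± 3.99). *Cldn3* (76.0 ± 16.7) came next. A single claudin thus held most of the level of its family in GS, namely *Cldn4* with 64.6% of the claudin sum. The merged exons of *Gja1* span 10257 bases, the longest of the members, so its level per kb is smaller beside that of the others than its count.

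The claudin sum per kb was 2103, 1727 and 1599 in GS, 1446, 1353 and 1966 in DM and 1907, 3653 and 2469 in NO for replicates 1, 2 and 3, and the media overlapped. The share of *Cldn6* in that sum was 2.0% ± 0.5 (SD, n = 3) for GS, 7.4% ± 0.4 for DM and 7.7% ± 1.0 for NO, while the shares of *Cldn3* were 4.2% ± 0.4, 2.6% ± 0.3 and 1.3% ± 0.3. These sums and shares are descriptions and were not tested.

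**Figure D1:**
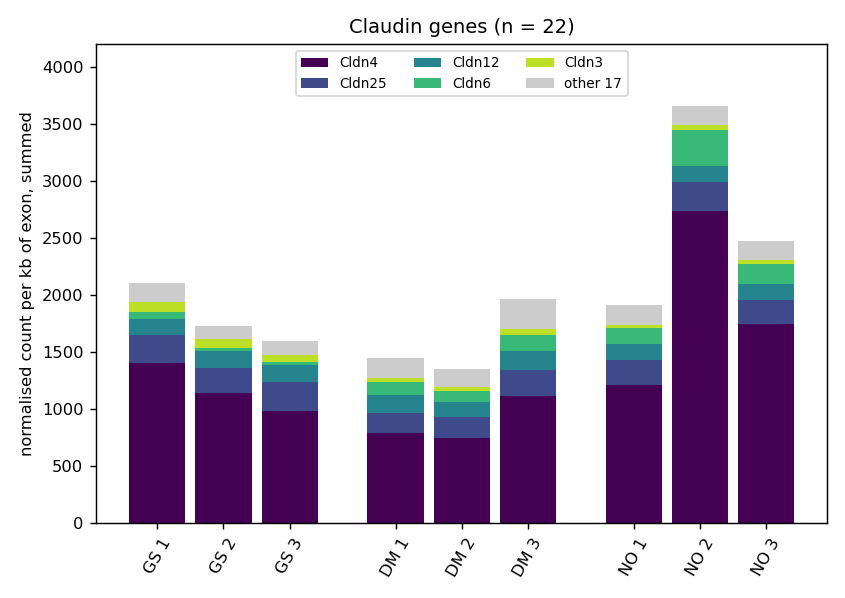
Stacked bars of the normalised count per kb of exon in each of the 9 samples for the 22 claudin genes, with 5 named genes in colour and the other 17 in grey. *Cldn4* is the largest block of every bar, and the bar of NO replicate 2 (3653) is the highest.

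Across the 3 media, 7 of the 20 tested members differed by the moderated F test (adjusted p under 0.05), 4 claudins (*Cldn3*, *Cldn4*, *Cldn5*, *Cldn6*) and 3 connexins (*Gja1*, *Gjb1*, *Gjc1*), whereas 23.3% of all 18156 genes tested did so. That count fell to 1 without GS replicate 2, to 3 without GS replicate 1 or 3 and to 4 without DM replicate 1 or 2. In the comparisons of pairs of media a gene was called changed at an adjusted p under 0.05 and at least a 2-fold difference. In DM against GS, 2 members were called higher, *Cldn5* and *Cldn6*, where 2.94% of all genes were higher. None was called lower by limma, where 1.27% of all genes were lower. At an unadjusted p under 0.05 in that limma fit, 5 members were higher, the 2 called among them, and 3 lower (*Cldn3*, *Gjb5*, *Gjc1*). In NO against GS, 2 members were higher (*Cldn6*, *Cldn10*) and 1 lower (*Cldn3*), where the background was 10.1% higher and 1.64% lower. In NO against DM, *Cldn4* was called higher and *Gjb1* lower, where 6.78% of all genes were higher and 1.77% lower. The median difference on the log2(value + 1) scale was -0.1, 0.35 and 0.22 for the 14 claudins and -0.52, -0.43 and -0.08 for the 6 connexins in DM against GS, NO against GS and NO against DM, with the medians of all genes at -0.001, -0.016 and 0.001. Under quantile normalisation the 3 calls of NO against GS were 1 higher (*Cldn6*) and 2 lower (*Cldn3*, *Gja4*), and of the calls over all genes 67.5% were higher in place of 86%; in NO against DM the latter share was 65.1% in place of 79.3%. Scaling to equal totals moved the median of all genes in NO against GS from -0.016 to 0.092 and kept the same 3 calls. Without NO replicate 2, 3 members were called in DM against GS (*Cldn5*, *Cldn6*, *Gjb1*), 2 in NO against GS (*Cldn3*, *Cldn6*) and 0 in NO against DM, where 3 members had an unadjusted p under 0.05 in that limma fit.

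**Figure D2:**
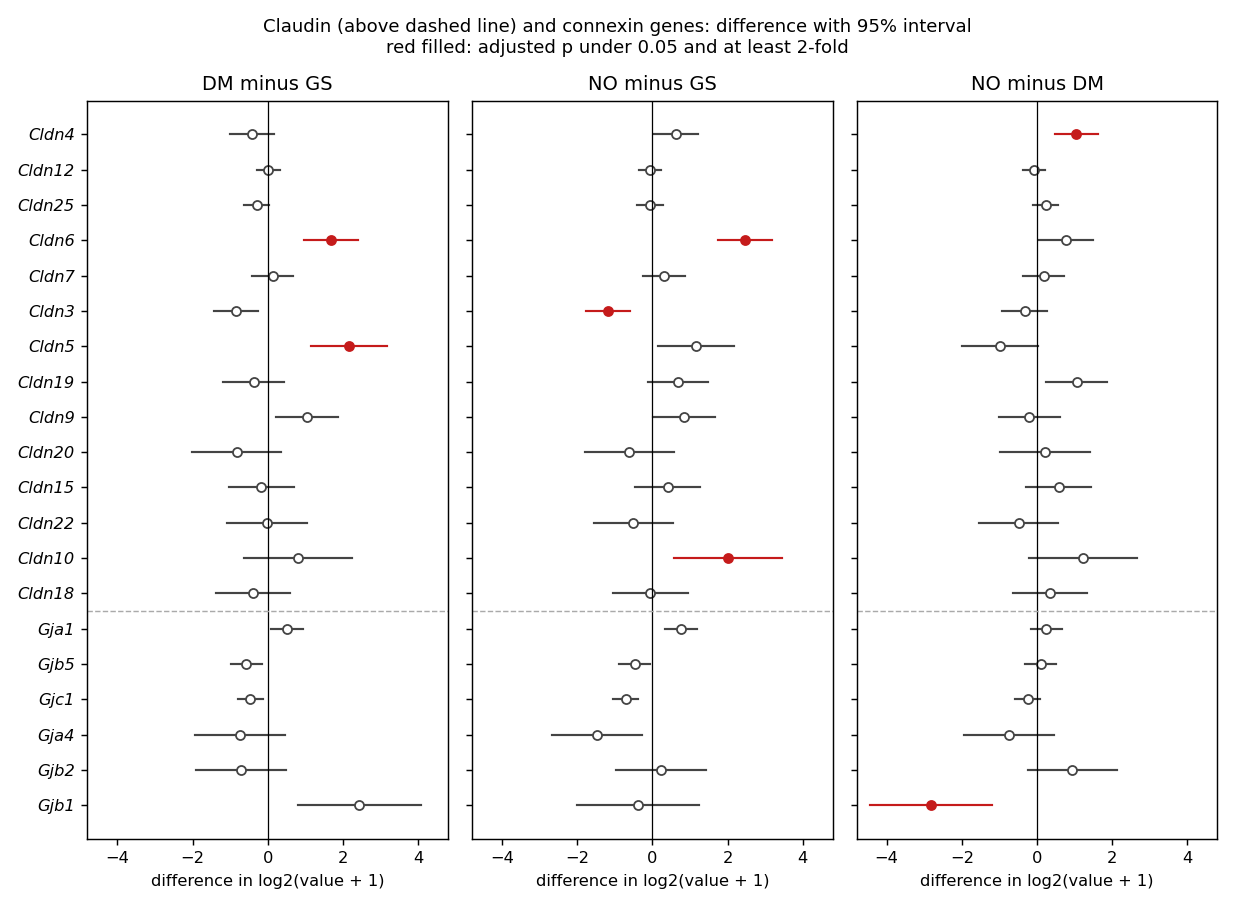
Differences in log2(value + 1) between media for the 20 tested members, in 3 panels (DM minus GS, NO minus GS, NO minus DM), with points for the estimate and lines for its 95% interval from limma. Red filled points mark genes with an adjusted p under 0.05 and at least a 2-fold difference, 2 in DM against GS, 3 in NO against GS and 2 in NO against DM.

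*Cldn6* encodes a claudin typical of embryonic epithelia and of the first epithelium that mESC form on differentiation. It is 1 of the members that rose outside GS. The normalised counts were 94, 50 and 49 in GS, 197, 165 and 245 in DM and 251, 551 and 290 in NO for replicates 1, 2 and 3. Every DM value lay above every GS value and every NO value above every DM value. The log2 difference was 1.69 ± 0.33 (SE) in DM against GS, with an adjusted p of 0.00957, and 2.46 ± 0.33 in NO against GS, with an adjusted p of 0.000944. Between NO and DM it was 0.77 with a 95% interval from 0.06 to 1.49 and an adjusted p of 0.132, which did not pass the threshold. The call in NO against GS held in each of 18 alternatives and was 2.12 with an adjusted p of 0.000983 without NO replicate 2. The call in DM against GS was lost without GS replicate 2 (1.54, adjusted p 0.0525) and without GS replicate 3 (1.53, adjusted p 0.0554).

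*Cldn9* lies next to *Cldn6* on chromosome 17 in the opposite orientation, with 137 bases between the gene ends. It was lower than *Cldn6* per kb in every medium, at 12.0 ± 3.56 in GS, 26.6 ± 13.0 in DM and 21.5 ± 2.77 in NO. Its normalised counts were 23, 16 and 13 in GS, 28, 27 and 60 in DM and 35, 27 and 31 in NO. All DM and NO values lay above all GS values, and DM and NO overlapped. Its differences from GS, 1.04 ± 0.38 in DM (adjusted p 0.138) and 0.83 ± 0.38 in NO (adjusted p 0.139), did not pass the threshold. Both genes of the pair were thus measured above GS in all 6 samples, and the call was made for *Cldn6* alone.

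*Cldn5* is the main claudin of endothelial cells, although other cell types also express it. The normalised counts were 29, 15 and 16 in GS, 81, 44 and 195 in DM and 44, 45 and 43 in NO. DM and NO values all lay above those of GS, and the spread was widest in DM, where replicate 3, which stood apart on the second principal component, was the highest sample. The log2 difference was 2.16 ± 0.46 in DM against GS with an adjusted p of 0.0168, and 1.16 ± 0.46 in NO against GS with an adjusted p of 0.0984. The DM call was lost without GS replicate 2 (1.99, adjusted p 0.0758), without GS replicate 3 (2.04, adjusted p 0.0797) and without DM replicate 1 (2.22, adjusted p 0.0527). Without DM replicate 3 it held at 1.59 with an adjusted p of 0.0475, and the difference of NO from GS, 1.16, was then called as well, with an adjusted p of 0.0364. Of 7 endothelial markers, 6 were in the table, and their summed normalised count was 2998 to 4129 in GS, 2536 to 2800 in DM and 3511 to 5388 in NO, most of it *Pecam1*, which naive mESC also express. None of the 4 tested markers was called in DM against GS. *Cdh5*, a defining endothelial cadherin, was at 4 or below in every sample. *Tek*, an endothelial receptor, was at 75, 96 and 94 in GS, 145, 169 and 152 in DM and 557, 1871 and 987 in NO. Of the 4 tested markers, *Tek* and *Tie1* were called higher in NO than in DM, where 6.78% of all genes were. Without NO replicate 2 the count was 1. *Tie1* was low, at 3, 5 and 5 in GS, 2, 5 and 2 in DM and 6, 19 and 25 in NO. *Pecam1* and *Kdr* were not called, with log2 differences of 0.32 and 0.97 between NO and DM. The part of endothelial cells in the *Cldn5* value was not tested.

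*Cldn4* and *Cldn3* encode claudins of simple epithelia, both of them receptors for an enterotoxin of Clostridium. Both lie on chromosome 5 in opposite orientation. *Cldn4* was at 2541, 2067 and 1782 in GS, 1430, 1357 and 2022 in DM and 2197, 4962 and 3170 in NO. Every NO value exceeded every DM value, and GS overlapped with both. *Cldn4* differed by -0.42 ± 0.26 in DM against GS (adjusted p 0.423), the same sign as *Cldn3*. The log2 difference of NO from DM was 1.05 ± 0.26 with an adjusted p of 0.0249, the only claudin call of that comparison. It was lost without DM replicate 1 (0.97, adjusted p 0.0815), DM replicate 2 (0.94, adjusted p 0.0852), NO replicate 2 (0.74, adjusted p 0.063) or NO replicate 3 (1.06, adjusted p 0.0648), with only the 6 samples compared (adjusted p 0.0644) and without a mean-variance trend (adjusted p 0.0717). NO replicate 2, the highest *Cldn4* value, was also the sample with the highest *Krt7*, *Krt18* and *Krt19*. The part of such epithelial genes in the value was not tested.

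*Cldn3* was lower outside GS. Its normalised counts were 117, 95 and 75 in GS, 43, 49 and 65 in DM and 34, 45 and 44 in NO, with all GS values above all others and with DM and NO overlapping. The log2 difference was -0.86 ± 0.27 in DM against GS (adjusted p 0.0883) and -1.19 ± 0.27 in NO against GS (adjusted p 0.0103). The latter call held in each of 18 alternatives, and without NO replicate 2 the difference was -1.26 with an adjusted p of 0.0148. Of the exons of *Cldn3*, 40 bases overlap *Wbscr25* on the opposite strand, and use of the strand in counting was not stated. In NO against DM *Cldn3* differed by -0.33 ± 0.27 (adjusted p 0.427) while *Cldn4* rose, so the pair of neighbours whose promoters are printed above was called in different comparisons, *Cldn4* higher in NO than in DM and *Cldn3* lower in NO than in GS. The difference between the pair was not tested.

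*Cldn10*, which encodes a claudin that forms ion-selective pores, was at a few counts outside NO. The normalised counts were 6, 1 and 3 in GS, 5, 6 and 6 in DM and 5, 26 and 22 in NO, which corresponds to about 7, 20 and 17 reads in NO. NO replicate 1 lay within the range of GS and DM, and NO replicates 2 and 3 lay above it. The log2 difference of NO from GS, 2.02 ± 0.66 with an adjusted p of 0.0498, passed the threshold narrowly and was lost in 13 of 17 alternatives. It fell to 1.62 (adjusted p 0.163) without NO replicate 2 and to 1.73 (adjusted p 0.157) without NO replicate 3, and it was lost without GS replicate 2 (1.55, adjusted p 0.166), without GS replicate 3 (2.05, adjusted p 0.112), and without DM replicate 1, 2 or 3 (2.02 each, adjusted p 0.0687, 0.0706 and 0.0561). Without NO replicate 1 it was called higher in NO than in DM as well (1.91, adjusted p 0.0402).

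The remaining claudins that passed the filter were not called. *Cldn12*, an unusual claudin without the usual binding motif for junction scaffolds, was at 599, 630 and 626 in GS, 658, 543 and 685 in DM and 580, 578 and 606 in NO. Its 95% interval was narrow, -0.28 to 0.31 for DM minus GS, -0.37 to 0.22 for NO minus GS and -0.38 to 0.20 for NO minus DM, so that a 2-fold difference lay outside each interval. *Cldn25* (*Cldnd1*) was at 644, 563 and 644 in GS, 457, 465 and 594 in DM and 564, 668 and 539 in NO, with intervals of -0.64 to 0.04, -0.41 to 0.27 and -0.11 to 0.57. The media overlapped for both genes in every comparison. *Cldn7*, a claudin of simple epithelia with matches to CACCTG in a promoter window, ranged from 50 to 89 over the 9 samples and its media overlapped. *Cldn19*, a claudin of kidney and eye epithelia, was at 24, 27 and 32 in GS, 16, 16 and 36 in DM and 50, 33 and 54 in NO, a difference of 1.05 ± 0.37 between NO and DM that missed the threshold (adjusted p 0.0773) and passed it without DM replicate 3 (1.43, adjusted p 0.0355). The other claudins tested, *Cldn15*, *Cldn18*, *Cldn20* and *Cldn22*, had mean values of 6.0 to 28.0 in each medium and overlapping media in every comparison. All of the 995 bases of *Cldn22* overlap exons of *Wwc2* on the opposite strand, so its value is uncertain.

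**Figure D3:**
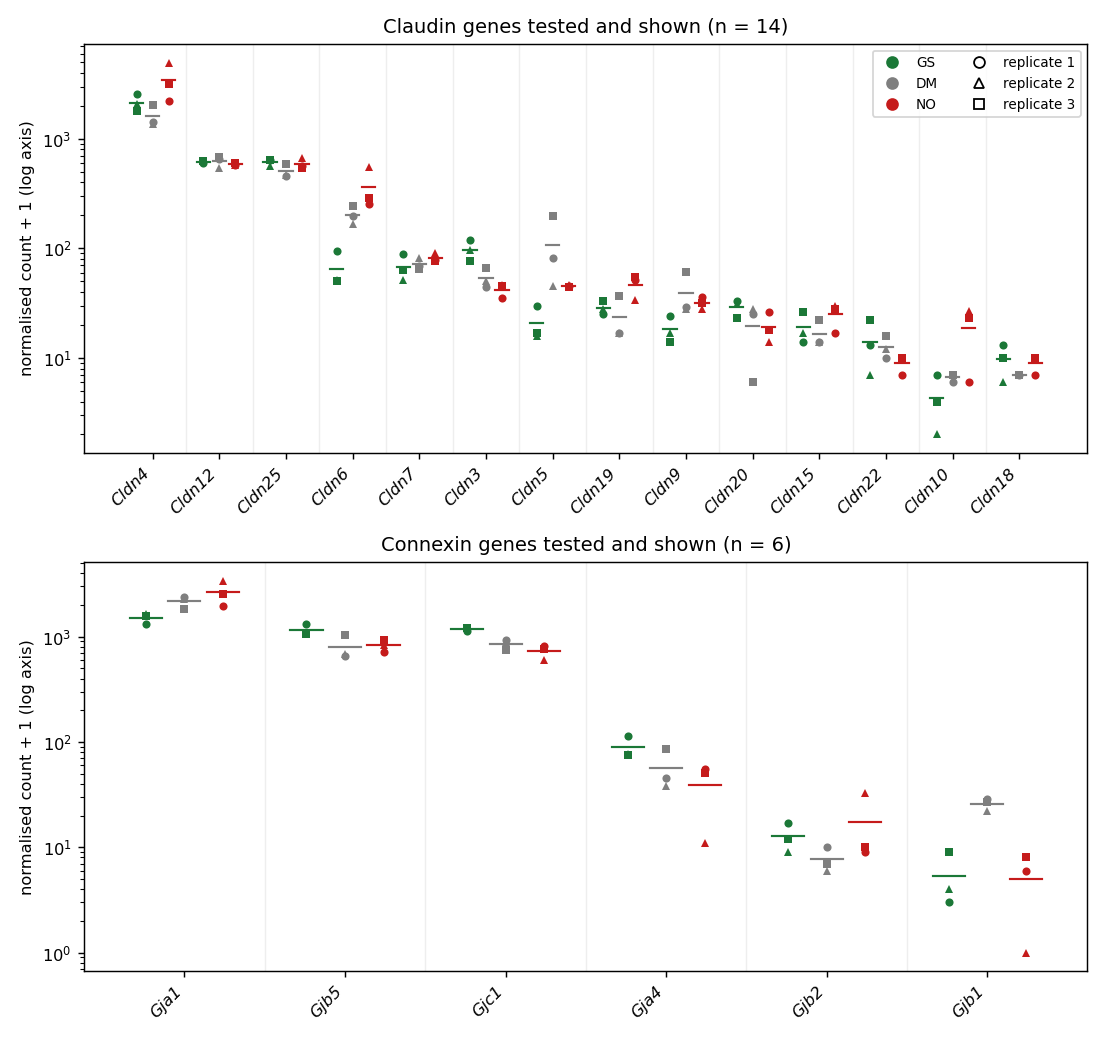
Normalised counts plus 1 on a log axis for the 14 tested claudins (top) and 6 tested connexins (bottom), with a point per sample, colour for the medium, shape for the replicate number and a short line at the mean of each medium. *Cldn6* steps up from GS (49 to 94) to DM (165 to 245) to NO (251 to 551), *Gjc1* is lower in DM (748 to 936) and NO (601 to 818) than in GS (1126 to 1219), and *Gjb1* is high in DM alone (21 to 28 against 0 to 8).

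Among connexins, *Gjb5*, a beta connexin of the trophoblast and the skin, had the highest level per kb of those described. The gene lies on the minus strand of chromosome 4 (127354809 to 127358181, GRCm38). Its normalised counts were 1310, 1091 and 1054 in GS, 656, 682 and 1035 in DM and 719, 833 and 938 in NO. All GS values lay above the rest, and DM replicate 3 was close to the lowest GS value. The log2 difference was -0.57 ± 0.19 in DM against GS, with an adjusted p of 0.107, and -0.47 ± 0.19 in NO against GS, with an adjusted p of 0.0976, and neither passed the threshold. Between NO and DM it was 0.09 with a 95% interval from -0.32 to 0.51, so that a 2-fold difference lay outside the interval.

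*Gja4*, the connexin that couples the oocyte to its granulosa cells and is also found in arteries, was much lower per kb, with levels of 52.0 ± 12.5 (SD, n = 3) for GS, 32.6 ± 15.1 for DM and 22.6 ± 14.4 for NO. The normalised counts were 112, 76 and 75 in GS, 44, 37 and 84 in DM and 54, 10 and 50 in NO. All NO values lay below all GS values, DM replicate 3 lay within the GS range and NO replicate 2 was lowest. On the log2 scale the difference was -1.47 ± 0.55 in NO against GS (adjusted p 0.0787) and -0.73 ± 0.55 in DM against GS (adjusted p 0.511). *Gja4* was called lower in NO than in GS under quantile normalisation (-1.85, adjusted p 0.0461), with the replicate block (-1.47, adjusted p 0.0443) and without NO replicate 1 (-1.88, adjusted p 0.0283), and without NO replicate 2 the difference was -0.72 with an adjusted p of 0.204.

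**Figure D4:**
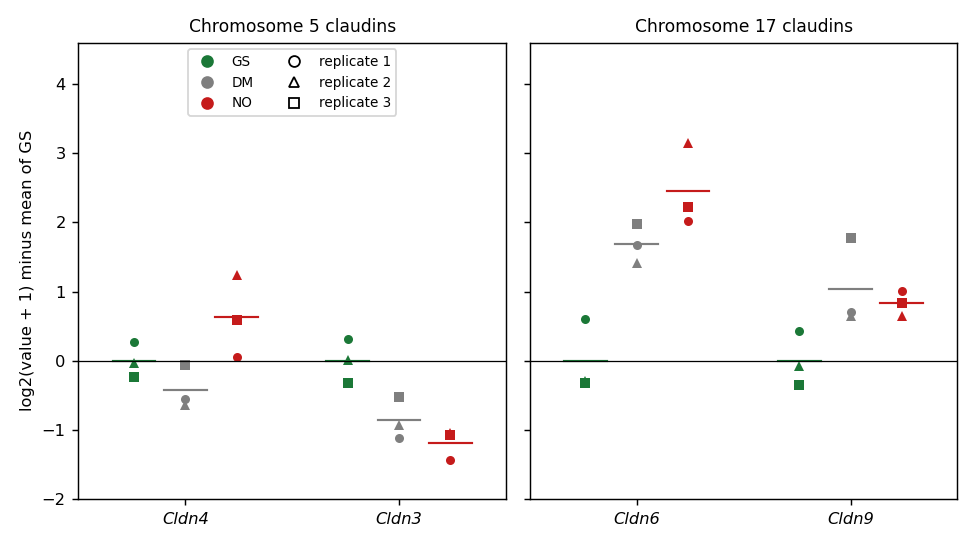
Values of neighbouring members in each of the 9 samples, as log2(value + 1) minus the mean of GS, for the claudin pair of chromosome 5 and the claudin pair of chromosome 17, with lines at the mean of each medium. *Cldn4* and *Cldn3* part in NO (means 0.63 and -1.19), and *Cldn6* and *Cldn9* both have DM and NO means above GS.

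*Gja1* (connexin 43), the connexin most widely used for coupling between mESC and in the heart, was higher outside GS. The normalised counts were 1325, 1636 and 1573 in GS, 2397, 2279 and 1838 in DM and 1954, 3397 and 2549 in NO, with all GS values below the rest and with DM and NO overlapping. The log2 difference was 0.77 ± 0.19 in NO against GS, with an adjusted p of 0.0172, and 0.52 ± 0.19 in DM against GS, with an adjusted p of 0.154. *Gjc1* (connexin 45), an early cardiovascular connexin, was at 1126, 1219 and 1199 in GS, 936, 892 and 748 in DM and 818, 601 and 760 in NO. All its GS values exceeded the others. Its log2 difference was -0.71 ± 0.15 in NO against GS, with an adjusted p of 0.00773, and -0.47 ± 0.15 in DM against GS, with an adjusted p of 0.098. *Gja1* and *Gjc1* therefore passed the p threshold in NO against GS, in opposite directions, and not the 2-fold minimum. *Gjc1* stayed under the p threshold in all alternatives run, whereas *Gja1* missed it without a mean-variance trend (adjusted p 0.0516), without GS replicate 1 (0.68, adjusted p 0.072) and without NO replicate 3 (0.78, adjusted p 0.0517).

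*Gjb1* (connexin 32), the main connexin of liver and of myelinating Schwann cells, was the member with the largest difference between NO and DM. The normalised counts were 2, 3 and 8 in GS, 28, 21 and 26 in DM and 5, 0 and 7 in NO, which corresponds to about 33, 30 and 24 reads in DM and 7, 0 and 5 in NO. All DM values lay above all others, and GS and NO overlapped. The log2 difference was -2.83 ± 0.74 in NO against DM, with an adjusted p of 0.0287, and 2.44 ± 0.74 in DM against GS, with an adjusted p of 0.0791. The call in NO against DM was lost without DM replicate 1, 2 or 3 (-2.75, -2.95 and -2.80, adjusted p 0.0882, 0.0698 and 0.0741), without NO replicate 2 (-1.90, adjusted p 0.0559), with only the 6 samples compared (adjusted p 0.0594) and without a mean-variance trend (adjusted p 0.0545). NO replicate 2 was the sample at 0. Without it, the difference between DM and GS was called, at 2.44 with an adjusted p of 0.00741. NO was near GS for this gene, at -0.39 with a 95% interval from -2.02 to 1.24, an interval wide enough to hold a difference of 2-fold in either direction.

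*Gjb2* (connexin 26), a connexin of the inner ear and the liver, was low in all media, at 16, 8 and 11 in GS, 9, 5 and 6 in DM and 8, 32 and 9 in NO. The highest value was that of NO replicate 2, and the media overlapped. It did not pass the threshold in any comparison.

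The other 17 members were at or below the filter and were not tested. They were the 8 claudins *Cldn1*, *Cldn2*, *Cldn11*, *Cldn13*, *Cldn14*, *Cldn23*, *Cldn24* and *Cldn26*, with a highest value of 14 (*Cldn14* in DM replicate 3), and the 9 connexins *Gja3*, *Gja5*, *Gja6*, *Gja10*, *Gjb6*, *Gjc3*, *Gjd3*, *Gjd4* and *Gje1*, with a highest value of 9. *Cldn1*, a claudin of skin and of many epithelia, did not exceed 5, and *Cldn2*, which forms cation pores, did not exceed 6. *Gjb6* (connexin 30) was listed at 0 in all GS and DM samples and at 1, 9 and 4 in NO, and *Cldn26* (*Tmem114*) was listed at 0 in all GS samples, at 1 in all DM samples and at 2, 1 and 4 in NO. In the alternative with no minimum mean, *Gjb6* was called higher in NO than in GS (adjusted p 0.019) and than in DM (adjusted p 0.0286), and *Cldn26* higher in NO than in GS (adjusted p 0.0261). *Gja5* (connexin 40), a connexin of arteries and the atria, did not exceed 3. These values rest on a few reads per sample.

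The genes that hold claudins and connexins in place were set beside them. Of 29 tested genes of tight junctions other than claudins, 4 were called in DM against GS, all higher (*Cgn*, *Cgnl1*, *Esam*, *Crb3*), where 2.94% of all genes were called higher, and 6 in NO against GS, all higher (*Ocln*, *Marveld3*, *Esam*, *Ildr2*, *Pard6g*, *Crb3*), where 10.1% of all genes were. Without NO replicate 2 the latter count was 4. *Cgnl1* (paracingulin), which links junctions to actin, was the only one called in NO against DM. It was at 131, 163 and 146 in GS, 828, 778 and 615 in DM and 268, 171 and 220 in NO, a log2 difference of -1.76 ± 0.20 between NO and DM with an adjusted p of 0.00138. Like *Gjb1*, it stood highest in all 3 DM samples, and here NO lay between GS and DM. The scaffold *Tjp1* (ZO-1), which binds both claudins and connexin 43, was at 3387 to 4917 in all 9 samples and was not called. The median difference of the list was 0.22, 0.26 and 0 in the 3 comparisons. The tight junction genes called by name in the comparisons with GS, and those of the other lists named in that way, were outside the rule for names and were chosen after their values were seen.

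Of 5 tested genes of pannexins and connexin partners, 1 was called higher in each comparison, *Dbn1* (drebrin, a partner of connexin 43) in DM and in NO against GS and *Panx1* in NO against DM, beside 2.94%, 10.1% and 6.78% of all genes called higher. *Panx1*, a channel protein related to connexins in shape, was at 353, 411 and 421 in GS, 338, 259 and 219 in DM and 442, 841 and 569 in NO. All NO values exceeded the others, with a log2 difference of 1.15 ± 0.23 between NO and DM (adjusted p 0.0106), a call that did not hold without NO replicate 2. Of 13 adherens junction genes tested, *Pvrl4* (nectin-4) was the 1 gene called in NO against DM, where 6.78% of all genes were called higher, and its values were 31, 28 and 38 in GS, 44, 50 and 51 in DM and 193, 1076 and 378 in NO. *Cdh1* (E-cadherin) was at 3556 to 5390 in GS, 2376 to 3750 in DM and 2869 to 5227 in NO and was not called, while *Cdh3* (P-cadherin) rose in both DM and NO against GS, by 1.49 ± 0.19 and 1.54 ± 0.19, with adjusted p of 0.00075 and 0.00066.

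The desmosome list had the largest share of genes called in NO against DM among the 6 lists: 5 of 9 tested were called, all higher, and 4 without NO replicate 2, while 6.78% of all genes were called higher. *Perp*, a 4-span protein of desmosomes related to claudins, was at 274, 333 and 269 in GS, 197, 210 and 241 in DM and 901, 4411 and 2165 in NO, a log2 difference of 3.25 ± 0.41 from DM with an adjusted p of 0.00195. *Dsc3* rose by 4.40 ± 0.69, *Dsc2* by 2.43 ± 0.39 and *Dsp* (desmoplakin) by 1.68 ± 0.35, with adjusted p of 0.00382, 0.00415 and 0.0113. *Dsc3* was at 3, 3 and 4 in GS, 1, 2 and 0 in DM and 16, 110 and 29 in NO. Its GS and DM values rest on a few reads. *Dsc2* was at 33, 20 and 17 in GS, 13, 11 and 6 in DM and 46, 75 and 51 in NO. *Dsp* was at 591, 445 and 497 in GS, 236, 306 and 242 in DM and 492, 1687 and 701 in NO. The fifth gene was *Pkp3*. In all 5 the highest value was that of NO replicate 2, as it was for the keratins of the epithelial list. Among the 6 tested relatives of claudins, *Perp* and *Emp3* were called higher in NO against DM, again beside 6.78% of all genes, *Emp3* by 1.64 ± 0.33 with an adjusted p of 0.0102. *Emp3* was at 49, 31 and 29 in GS, 28, 35 and 32 in DM and 64, 139 and 114 in NO. The median differences in NO against DM were 1.44 for desmosome genes and 0.97 for claudin relatives beside 0.22 for claudins and -0.08 for connexins. The lists overlap (*Perp* is in both), and these medians are descriptions.

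Of 15 tested regulators of epithelial junction genes, *Esrp1*, a splicing factor of epithelial cells, was the 1 gene called lower in NO than in DM, where 1.77% of all genes were. Without NO replicate 2 that count was 2. *Esrp1* was at 62, 40 and 41 in GS, 272, 221 and 333 in DM and 132, 96 and 92 in NO, a log2 difference of -1.36 ± 0.25 between NO and DM with an adjusted p of 0.00752. It was called higher than GS in DM (2.51 ± 0.25, adjusted p 0.000219) and in NO (1.16 ± 0.25, adjusted p 0.00886). *Grhl2*, a grainyhead factor that activates claudin genes in epithelia, was at 51, 59 and 57 in GS, 343, 309 and 379 in DM and 128, 331 and 200 in NO and was called higher in DM and in NO than in GS, by 2.60 ± 0.29 and 1.86 ± 0.29 (adjusted p 0.00034 and 0.0016). *Elf3*, an epithelial ETS factor, was called lower in both, at 2001 to 2939 in GS, 970 to 1135 in DM and 1075 to 1159 in NO. *Zeb1*, *Zeb2*, *Snai1* and *Snai2*, the repressors that bind the CACCTG hexamer printed above, were not called in any comparison. In DM against GS, 2 of the 15 were called higher and 1 lower, where 2.94% and 1.27% of all genes were. In NO against GS, 3 were called higher (*Esrp1*, *Grhl2* and *Twist1*) and 1 lower (*Elf3*), where 10.1% and 1.64% of all genes were. Without NO replicate 2 the latter counts were 2 and 1. *Twist1* was called higher in NO than in GS with all samples (1.42 ± 0.41, adjusted p 0.031). It was at 11, 16 and 12 in GS, 21, 15 and 33 in DM and 23, 55 and 37 in NO. All of these are mRNA values and do not measure protein. Whether these regulators took part in the values of *Cldn4*, *Cldn6* or *Gjb1* was not tested.

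**Figure D5:**
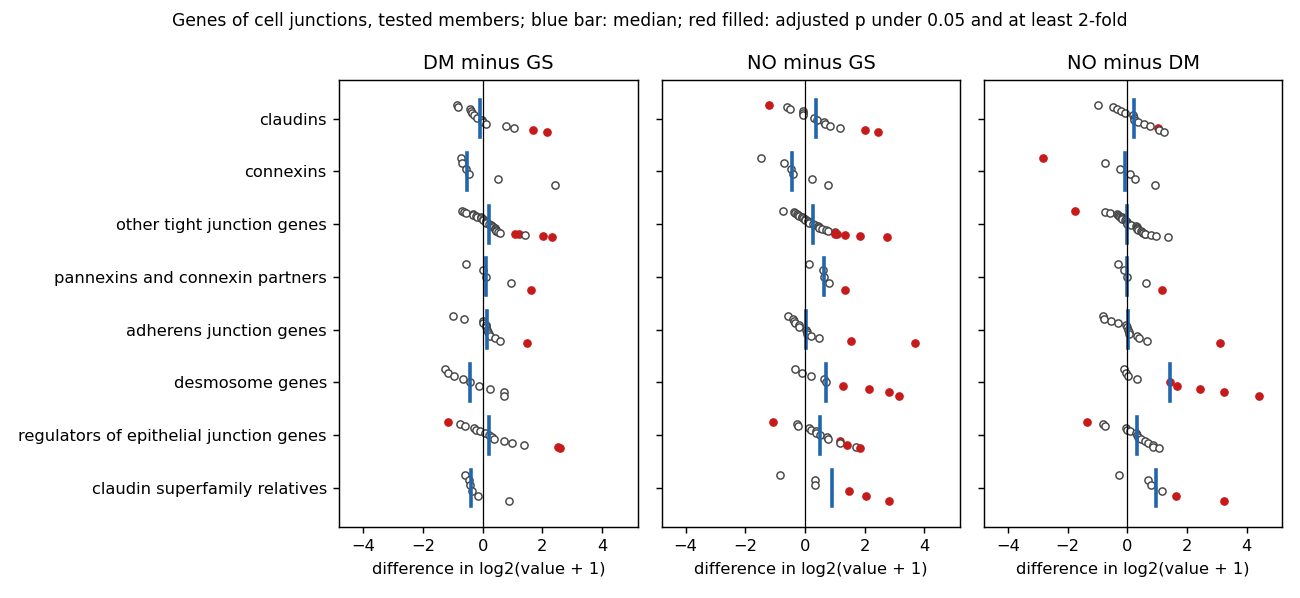
Differences in log2(value + 1) for each tested gene of the claudins, the connexins and 6 lists of other junction genes and their regulators, in 3 panels (DM minus GS, NO minus GS, NO minus DM), with a blue bar at the median of each list and red filled points for genes with an adjusted p under 0.05 and at least a 2-fold difference. In NO minus DM the desmosome median is 1.44, and the medians of the claudins (0.22) and connexins (-0.08) lie near 0.

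Other cell types that the cultures could hold were followed by their markers. The summed count of 5 markers of stratified epithelium was 68 to 90 in GS, 57 to 75 in DM and 86 to 341 in NO. Of these markers *Krt5* was listed at 0 in all GS samples, at 0, 0 and 5 in DM and at 26, 215 and 72 in NO, *Krt10* ranged from 51 to 98 over all 9 samples and *Trp63* was highest in GS (14, 5 and 7, against 1, 1 and 0 in DM and 2, 4 and 3 in NO). The sum of 9 trophoblast markers was 819 to 964 in GS, 391 to 479 in DM and 499 to 1516 in NO. The sum was lower in every DM sample than in every GS sample and overlapped between NO and GS, while *Gjb5* was below GS in all DM and all NO samples. Of the 9 trophoblast markers, 4 were called lower in DM than in GS, where 1.27% of all genes were. In NO against DM, 4 were called higher, where 6.78% of all genes were, and 3 without NO replicate 2. In NO against GS, 2 were called higher and 3 lower, where 10.1% and 1.64% of all genes were. The sum of 8 primitive endoderm markers was 7550 to 8354 in GS, 2929 to 3607 in DM and 3583 to 4602 in NO. Most of it was *Lama1* (8149, 7405 and 7918 in GS, 4372, 2874 and 3924 in NO). *Lama1* was called lower in NO than in GS and *Gata6* higher (5 to 15 in GS, 20 to 234 in NO). Neither call held without NO replicate 2. *Lama1* was also called lower in DM than in GS (-1.29 ± 0.17, adjusted p 0.000922), and all its DM and NO values lay below all its GS values. The sum of 6 early mesoderm markers was 451 to 561, 195 to 241 and 175 to 297 in GS, DM and NO. Of these, *T* and *Eomes* were called lower in NO than in GS, and *Hand1* and *Mesp1* higher. Without NO replicate 2 the calls were 2 lower and 1 higher. Of all genes 1.64% were called lower and 10.1% higher. The sum of 7 fibroblast or feeder markers was 318 to 495, 412 to 447 and 381 to 406. The part of these cell types in the claudin and connexin values was not tested.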

How the data were processed

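The 9 RNA-Seq libraries of D3 mESC (3 each of GS, DM and NO) were grouped and numbered by their labels. Per the methods and the processing notes, the authors removed ribosomal RNA, used the Ion Torrent Proton platform, aligned to GRCm38 with STAR 2.4.0a, counted reads per gene with featureCounts 1.4.5-p1 and normalised with DESeq2. Use of the strand was not stated. The deposited values are a score, namely a count divided by the sample's size factor and rounded by the authors, so no count model was fitted, and totals (18290445 to 20508679) do not show depth, which was estimated from the spacing of low values.

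The 18156 genes with a mean over 5 were compared on the log2(value + 1) scale with limma 3.58.1 in R 4.3.3 (all 9 samples, no covariate, moderation with a trend, Benjamini-Hochberg adjustment over all genes, two-sided). Differences on this scale understate changes of low genes. Called genes had an adjusted p under 0.05 and at least a 2-fold difference. The limma fit was tested on simulated data.

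The members, gene lists and tests were chosen with earlier results of these data known. Of the 41 genes the rule finds, 4 connexin genes are not reported here. Values in every sample are given for members called in any comparison and for the 3 reported genes of each family with the highest mean per kb, and for up to 4 genes per list with the smallest adjusted p in NO against DM. Of the listed genes, nectins, afadin and Patj appear in the table under older symbols. Exon lengths, overlaps and gene positions are from GENCODE M21 (GRCm38), and promoter windows from RefSeq (GRCm38.p6).

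Replicate numbers recur in each medium. Deviations from the group means correlated across genes between same-numbered NO and DM samples at 0.16, 0.17 and 0.3 for numbers 1, 2 and 3, all above 0.1, so these numbers were taken to pair NO with DM, a hint from the data that the labels do not give. Correlations between differently numbered samples were not set beside them, so a pairing is not established, and the main fit does not use it. For DM and GS the values were -0.18, 0.02 and -0.23, and for NO and GS -0.05, 0.05 and -0.11. Alternatives were the replicate block, only the 6 samples compared, pseudocounts of 0.5 and 5, no minimum mean or 50, no fold minimum or 4, equal totals, quantile normalisation, no trend and each replicate left out.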

Additional observations from a re-analysis of the deposited data

How the results depend on the processing

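Counts of claudin and connexin genes called were within 1.5 times the main count in the alternatives not named here. With a 4-fold minimum, 1 gene was called in DM against GS in place of 2, 2 in NO against GS in place of 3 and 1 in NO against DM in place of 2. With no minimum fold, 5 were called in NO against GS, *Gja1* and *Gjc1* being added. In NO against DM, 0 were called with only the 6 samples compared and 0 without a mean-variance trend (4 and 3 members, respectively, had an unadjusted p under 0.05 in those limma fits), and 1 with a mean above 50, which removes *Gjb1* from the test. The F test called 4 without a trend in place of 7. Leaving out each replicate in turn gave 0 to 3 genes in DM against GS (0 without GS replicate 2 or 3, 1 without DM replicate 1), 2 to 4 in NO against GS (2 without NO replicate 2), 0 to 3 in NO against DM (0 without DM replicate 1, DM replicate 2 or NO replicate 2, 1 without NO replicate 3) and 1 to 8 in the F test (1 without GS replicate 2, 3 without GS replicate 1 or 3, 4 without DM replicate 1 or 2). Where leaving out a replicate gave 0, limma gave 8 (GS replicate 2), 7 (GS replicate 3), 2 (DM replicate 1), 3 (DM replicate 2) and 3 (NO replicate 2) members with an unadjusted p under 0.05. The cause of these changes was not tested.

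With the replicate block, 2 genes were called in DM against GS, 3 in NO against GS, 2 in NO against DM and 7 in the F test. In NO against DM, the comparison in which the numbers were taken to pair the samples, the block kept *Cldn4* and *Gjb1*. In NO against GS, where they were not, it kept *Cldn3* and *Cldn6*, lost *Cldn10* (adjusted p 0.0702) and added *Gja4* (adjusted p 0.0443). The block changed no other call.

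Of 588 values of the 11 named members under alternatives, 545 kept their direction and side of the threshold, 30 fell below it, 5 rose above it, 8 uncalled values changed in sign and 0 called values did. They cover 33 pairs of gene and comparison, most of them not called in the main fit and so with no call to lose. All 30 losses fell on the main calls. In NO against GS, *Cldn3* and *Cldn6* kept theirs in each of 18 alternatives and *Cldn10* lost it in 13 of 17. In NO against DM, *Gjb1* lost it in 6 of 17 and *Cldn4* in 6 of 18. In DM against GS, *Cldn5* lost it in 3 of 18 and *Cldn6* in 2 of 18. With no minimum mean, the members added to the calls were *Gjb6* and *Cldn26*, whose values rest on a few reads.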
